A study of Homo sapiens with 9 samples.

Results

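The 47 genes described here are nuclear genes whose products copy, package, transcribe, process and translate mitochondrial DNA (mtDNA), together with 3 nuclear regulators of such genes. They are defined by a list of gene names, and all 47 were found among the 24542 rows of the deposited count table by their Ensembl identifiers. RNA was sequenced from A2780 cells, a human ovarian carcinoma line labelled as wild type, in 3 groups of 3 libraries. The groups were cells given Pt-ttpy at 5.5 µM for 96 h, cells given cisplatin (written "Cispt" in the labels) at 0.6 µM for 96 h, and control cells given 0.5% DMSO for 96 h. The labels place each drug at its own IC80, and they give no DMSO level for the drug groups. Cisplatin forms platinum crosslinks in DNA. The series title presents Pt-ttpy, also a complex of platinum, as a binder of G-quadruplexes, the folded structures of guanine-rich nucleic acid, in nuclear and mitochondrial genomes.

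mtDNA encodes core subunits of the respiratory chain, its own ribosomal RNAs and its own transfer RNAs, while every protein that replicates and expresses it is made from nuclear genes. The helicase TWNK, the polymerase POLG and the single-strand binding protein SSBP1 copy the DNA, TFAM packages it, and POLRMT with TFB2M transcribes it into long precursors. These precursors are cut at the transfer RNAs, and the messengers are then stabilised or degraded by dedicated RNA-binding proteins and translated on mitochondrial ribosomes with elongation factors related to those of bacteria.

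Libraries held 32.4 to 35.1 M counts in the Pt-ttpy group, 31.3 to 39.5 M in the cisplatin group and 36.4 to 40.8 M in the DMSO group. The labels call the replicates biological but do not say what was kept separate, so p-values measure the spread between these libraries, which may be partly technical. Of 8 ovarian carcinoma markers (PAX8, WT1, EPCAM, KRT8, KRT18, KRT19, MUC16 and MSLN), 0 reached a mean of 1 CPM (the count scaled to library depth) over all 9 libraries. KRT8 averaged 0.49 CPM after Pt-ttpy and 1.48 CPM after cisplatin, against 0.06 CPM in DMSO, where its counts were 6, 0 and 0. EPCAM averaged 0.23 and 0.81 CPM, against 0.09 CPM in DMSO. WT1 and KRT18 went the other way, with 0 CPM after either drug, against 0.10 and 0.02 CPM in DMSO. All these marker values rest on few counts. All 6 fibroblast markers (DCN, LUM, COL1A1, COL1A2, COL3A1 and PDGFRB) reached a mean of 1 CPM. Their summed level was 1594 to 1667 CPM after Pt-ttpy and 1513 to 1800 CPM after cisplatin, against 886 to 992 CPM in DMSO. Most of it came from DCN, LUM and COL3A1 (means of 496, 283 and 823 CPM after Pt-ttpy). COL1A1 averaged 9.94 CPM after Pt-ttpy and 10.2 after cisplatin, against 11.1 in DMSO, while each other marker averaged higher after both drugs. The leukocyte, endothelial and erythroid lists held 1 gene (CD68) above 1 CPM. The part of these marker levels in the results below was not tested. In DMSO 2 and cisplatin 2 GC-rich transcripts had more counts relative to the other libraries (Spearman rho with transcript GC 0.52 and 0.43 across 13383 genes, which are not independent replicates), whereas rho was −0.35 to −0.16 in the remaining 7 libraries. Called and key members are therefore also given from a fit of the 7 other libraries.

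Because Pt-ttpy is presented as a G-quadruplex binder, and NRF1 and GABPA are known activators of nuclear genes for mitochondria, the promoters were read for 3 motifs. RefSeq promoters on GRCh38.p14, 250 bases before to 50 after the start, were at hand for 42 of the 47 genes. TWNK, FASTKD5, NRF1, TOP1MT and MTERF3 were not among them. A G-quadruplex pattern, meaning 4 runs of at least 3 G separated by 1 to 7 bases on either strand, was present in 7 of 42 promoters (16.7%), against 30.7% of 15304 promoters of genes in the table. With loops of up to 12 bases it was present in 12 of 42 (28.6%), against 45.7%. Of the 7 promoters at hand for genes lower after Pt-ttpy, 1 held the pattern (RNASEH1). The GABPA core CCGGAAGT, or ACTTCCGG on the other strand, was present in 12 of 42 (28.6%), against 6.31% of all. The NRF1 core GCGCATGC, or GCATGCGC on the other strand, was present in 5 of 42 (11.9%), against 4.25%. Those 5 were EXOG, POLRMT, TFB2M, MTPAP and TFB1M. The 2 strands of the NRF1 core overlap each other, and no match printed here overlaps a match to another motif. These are descriptions of letters, and binding was not measured.

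The windows below are 60 bases each, read along the gene's own strand, with the match in capitals. They show both G-quadruplex patterns of RNASEH1, which was lower after either drug, and the pattern of DHX30, which was lower after cisplatin. Also shown are the GABPA cores of the translation factor TUFM and the RNA-cutting enzyme ELAC2. The last windows hold an NRF1 core of the RNA polymerase POLRMT and the NRF1 core of the transcription factor TFB2M. POLRMT has another NRF1 core at −132 to −125 from its start, not printed here. In RNASEH1 the G runs lie on the strand opposite the gene and so appear as runs of C.
RNASEH1, chr2:3558365-3558424, minus strand: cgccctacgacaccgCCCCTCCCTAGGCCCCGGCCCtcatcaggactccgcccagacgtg
RNASEH1, chr2:3558503-3558562, minus strand: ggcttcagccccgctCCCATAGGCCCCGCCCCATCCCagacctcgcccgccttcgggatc
DHX30, chr3:47802921-47802980, plus strand: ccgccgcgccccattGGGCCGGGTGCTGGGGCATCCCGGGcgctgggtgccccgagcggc
TUFM, chr16:28846349-28846408, minus strand: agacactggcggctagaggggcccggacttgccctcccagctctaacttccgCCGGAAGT
ELAC2, chr17:13018206-13018265, minus strand: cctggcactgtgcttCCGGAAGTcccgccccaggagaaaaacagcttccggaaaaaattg
POLRMT, chr19:633538-633597, minus strand: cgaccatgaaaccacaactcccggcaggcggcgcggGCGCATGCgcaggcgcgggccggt
TFB2M, chr1:246566262-246566321, minus strand: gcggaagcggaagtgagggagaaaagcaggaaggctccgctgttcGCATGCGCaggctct

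A2780 cells made RNA for 46 of the 47 factors. PPARGC1A, the coactivator that drives mitochondrial biogenesis in many tissues, had 0 counts in all 9 libraries, and 3 counts, the limit that a count of 0 allows, would have been 0.071 to 0.0966 CPM per library (counting error only). Per kilobase of exon, levels in DMSO spanned a 99.5-fold range around a median of 14.0 CPM per kb. TUFM, the elongation factor that brings transfer RNAs to the mitochondrial ribosome, stood highest on this scale, with means of 164 CPM per kb after Pt-ttpy and 170.2 after cisplatin, against 232 in DMSO. HSD17B10, a subunit of the mitochondrial RNase P that cuts precursors, came next in DMSO, with 69.4 CPM per kb after Pt-ttpy and 68.0 after cisplatin, against 86.0 in DMSO. LRPPRC, which stabilises mitochondrial messengers, had 73.4 after Pt-ttpy and 71.7 after cisplatin, against 58.9 in DMSO. MTRF1, a release factor relative, was lowest of the 46, with 1.75 after Pt-ttpy and 1.72 after cisplatin, against 2.33 CPM per kb in DMSO. Of the 10 genes for packaging and replication, the exonuclease MGME1 stood highest in every group, with 25.9 CPM per kb after Pt-ttpy and 28.4 after cisplatin, against 22.8 in DMSO. The nuclease EXOG stood lowest, with 3.14 after Pt-ttpy and 2.89 after cisplatin, against 3.57 CPM per kb in DMSO.

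**Figure D1:**
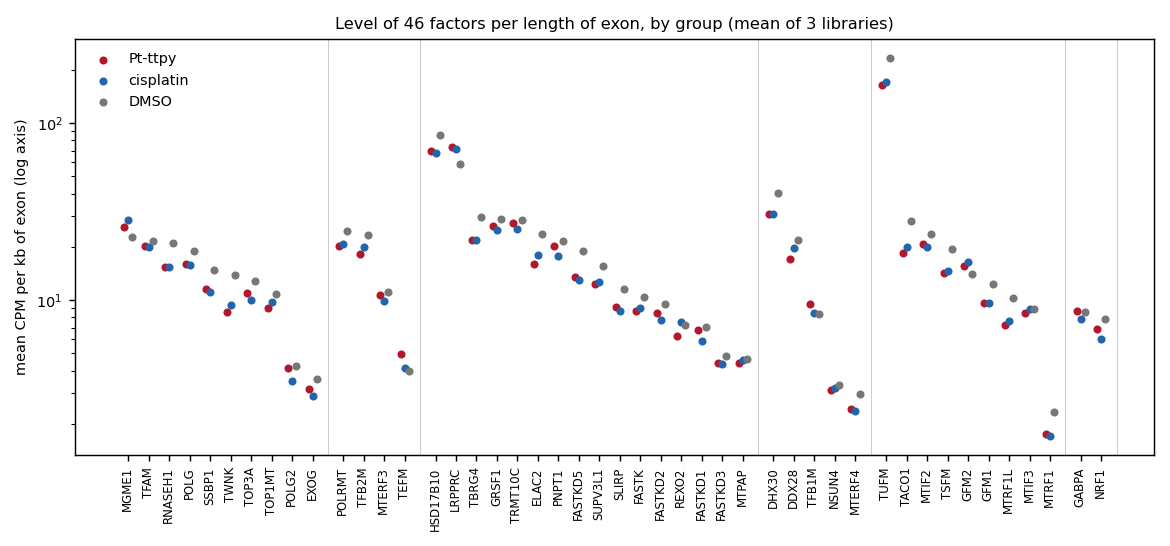
Mean level of each of the 46 detected factors per group, in CPM per kilobase of exon (log axis), ordered within roles, with Pt-ttpy, cisplatin and DMSO as separate points. TUFM stands highest and MTRF1 lowest, and the range in DMSO is 99.5-fold.

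After Pt-ttpy, RNA of 8 of the 46 tested factors fell and that of 0 rose relative to DMSO (edgeR quasi-likelihood test, Benjamini-Hochberg adjusted p under 0.05 over 15558 genes). The 8 were the mtDNA helicase TWNK, the RNA-DNA hybrid nuclease RNASEH1, the RNA factors ELAC2, SUPV3L1 and TBRG4, and the translation factors TUFM, TSFM and TACO1. Their log2 changes ran from −0.33 to −0.70. Of all genes tested, 6.45% were called lower and 5.59% higher, so the members' share of 17.4% lower was above the background for lower genes, while 38 members were not called. At an unadjusted p under 0.05 there were 17 of 46, against 29.8% of all genes. Among 11129 genes with a mean of at least 5 CPM, 8.83% were called lower. The median log2 change over the 46 was −0.23, against 0.03 over all genes tested, and 40 of 46 had a change below 0, against 46.9% of all genes. In 25 members every Pt-ttpy library lay below every DMSO library (20.6% of all genes), and in 2, LRPPRC and TFB1M, every Pt-ttpy library lay above (20.3% of all genes). The summed level of the 46 was 3582 ± 77.2 CPM after Pt-ttpy and 4097 ± 83.0 CPM in DMSO (SD, n = 3 each), and the groups did not overlap. In bulk RNA, less RNA per cell and fewer cells that carry it cannot be told apart.

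The 8 calls needed all 3 Pt-ttpy libraries. Without Pt-ttpy 1, 2 or 3, 0 members passed in edgeR, 14, 13 and 12 had an unadjusted p under 0.05, and 267, 185 and 299 genes passed over the whole table, against 1874 in the full fit. On all 9 libraries DESeq2 called 11 members lower and limma-voom 7. The size of the changes moved little: TWNK lay between −0.67 and −0.76 in those 3 fits, with adjusted p-values of 0.064 to 0.076 from the same edgeR test. Without cisplatin 2, which shares in the estimate of the spread, 14 members fell. In that fit 22 members and 5413 of all genes had an unadjusted p under 0.05, against 17 and 4637 in the full fit. Without any of the other libraries, TWNK, RNASEH1, ELAC2, TUFM, TSFM and TACO1 stayed past the threshold. SUPV3L1 was also lost without DMSO 1, DMSO 3, cisplatin 1 or cisplatin 3, and TBRG4 without DMSO 2, cisplatin 1 or cisplatin 3, in limma-voom and with the 6 Pt-ttpy and DMSO libraries alone.

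After cisplatin, RNA of 12 of 46 factors fell and that of 0 rose relative to the same DMSO libraries. Over all genes 9.78% were called lower and 10.7% higher, so the members' 26.1% lower was above the background for lower genes. Among the genes with a mean of at least 5 CPM, 13.3% were called lower. At an unadjusted p under 0.05 there were 22 of 46, against 35.1% of all genes. The 12 were TWNK, RNASEH1, SSBP1, ELAC2, SUPV3L1, TBRG4, FASTKD5, DHX30, TUFM, TSFM, TACO1 and NRF1. The median change was −0.27, against 0.01 over all genes, and 40 of 46 were below 0, against 48.9%. In 21 members every cisplatin library lay below every DMSO library (19.4% of all genes), and in 1, GFM2, every one lay above (18.6% of all genes). The summed level was 3565 ± 315 CPM after cisplatin and 4097 ± 83.0 CPM in DMSO (SD, n = 3 each). Both drug comparisons share their DMSO libraries, so values of the members are given side by side and the overlap of the calls is not a result.

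Most of the 12 cisplatin calls lay near the threshold. With the 6 cisplatin and DMSO libraries fitted alone in edgeR, 0 of the 46 were called. At an unadjusted p under 0.05 there were 17, beside 4409 of all genes. With all groups kept and cisplatin 1, 2 or 3 left out, 5, 3 and 5 fell. With Pt-ttpy 1, 2 or 3 left out, 5, 4 and 5 fell. Without DMSO 1, 2 or 3, 9, 9 and 8 fell. TWNK and RNASEH1 were called in all 9 of these fits, TACO1 in 8, TSFM in 7 and TUFM in 6. ELAC2 and TBRG4 were called in 3, DHX30 and NRF1 in 2, and SSBP1, FASTKD5 and SUPV3L1 in 1.

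**Figure D2:**
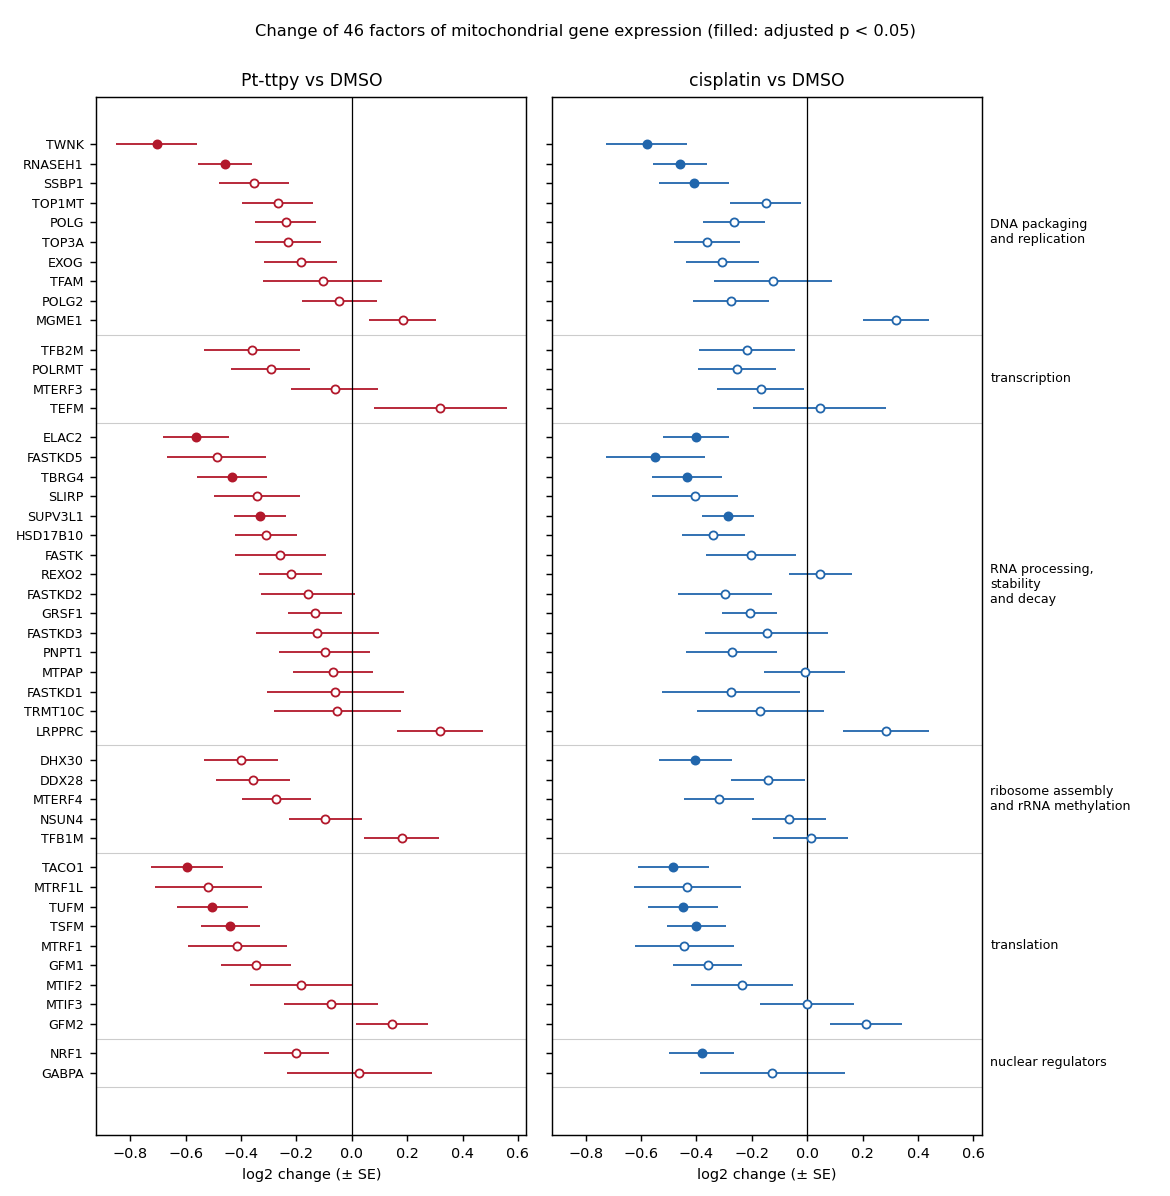
Log2 change of each tested factor by role, Pt-ttpy against DMSO on the left and cisplatin against DMSO on the right, as points with standard errors of the edgeR fit, filled where the adjusted p is under 0.05. All filled points lie below 0: 8 for Pt-ttpy and 12 for cisplatin.

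Among the 10 genes for packaging and replication, 2 (20%) fell after Pt-ttpy (median change −0.23) and 3 (30%) after cisplatin (median −0.29). Of all genes tested, 6.45% were called lower after Pt-ttpy and 9.78% after cisplatin. Among genes with a mean of at least 5 CPM these shares were 8.83% and 13.3%. Each role holds few genes, so its share is coarse. TWNK (chr10:100987367-100994401, plus strand, GRCh38), which unwinds mtDNA ahead of the polymerase, had 33.4, 38.1 and 34.6 CPM after Pt-ttpy and 42.3, 30.0 and 43.5 CPM after cisplatin, against 53.6, 63.4 and 55.9 CPM in DMSO. Every drug-treated library lay below every DMSO library. The log2 change was −0.70 ± 0.15 (SE, adjusted p = 0.0154) with Pt-ttpy and −0.58 ± 0.15 (adjusted p = 0.0182) with cisplatin. In the 7 libraries it was −0.63 with Pt-ttpy and −0.35 with cisplatin, both called. TWNK shares 149 exon bases, 3.6% of its exon length, with MRPL43 on the opposite strand, and whether counting used strand is not given in the sources used here.

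RNASEH1 (chr2:3544793-3558616, minus strand), which degrades RNA in RNA-DNA hybrids in nucleus and mitochondria, had 45.9, 42.2 and 43.9 CPM after Pt-ttpy and 45.7, 42.4 and 43.7 CPM after cisplatin, against 58.9, 63.4 and 59.0 CPM in DMSO. The drug libraries were tightly grouped and none reached the DMSO range. Its change was −0.46 ± 0.10 with either drug (adjusted p = 0.0168 for Pt-ttpy and 0.00948 for cisplatin), and in the 7 libraries −0.42 with Pt-ttpy and −0.39 with cisplatin, both called. RNASEH1 has annotated pseudogenes and shares 3.3% of its exon length with AC108488.2, so part of its counts is uncertain.

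SSBP1, which coats single-stranded mtDNA at the fork, had 54.0, 63.8 and 55.1 CPM after Pt-ttpy and 61.1, 45.8 and 59.8 CPM after cisplatin, against 71.9, 75.0 and 74.2 CPM in DMSO. Again no drug library reached the DMSO range. The change passed the test with cisplatin (−0.41 ± 0.13, adjusted p = 0.0397) and did not with Pt-ttpy (−0.35 ± 0.13, adjusted p = 0.084). In the 7 libraries both passed, at −0.27 with cisplatin and −0.34 with Pt-ttpy, and without cisplatin 2 alone the cisplatin value was −0.29 (adjusted p = 0.0967). POLG, the catalytic subunit of the polymerase, had 99.8, 89.3 and 98.6 CPM after Pt-ttpy and 92.6, 97.3 and 92.9 CPM after cisplatin, against 103, 131 and 106 CPM in DMSO. Its groups also did not overlap, and neither change was called (−0.24 with Pt-ttpy, adjusted p = 0.175, and −0.26 with cisplatin, adjusted p = 0.113). Without DMSO 2 and cisplatin 2 these were −0.12 with Pt-ttpy and −0.17 with cisplatin, also not called. With the GC correction the cisplatin change passed (−0.22, adjusted p = 0.0325). POLG shares 7.7% of its exon length with FANCI on the opposite strand.

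TFAM (chr10:58385022-58399221, plus strand), which wraps and compacts mtDNA and activates its transcription, had 114, 113 and 111 CPM after Pt-ttpy and 134, 72.2 and 128 CPM after cisplatin, against 143, 91.0 and 129.9 CPM in DMSO. The Pt-ttpy libraries were the closest to each other, while DMSO 2 and cisplatin 2 lay far below the other libraries of their groups. The change was −0.11 ± 0.21 (adjusted p = 0.782, 95% interval −0.57 to 0.36) with Pt-ttpy and −0.12 ± 0.21 (adjusted p = 0.717) with cisplatin. Without these 2 libraries TFAM fell with Pt-ttpy, by 0.27 on the log2 scale (adjusted p = 0.000981), and its cisplatin change was −0.05 (adjusted p = 0.547). TFAM was not called with either drug under the GC correction of all 9 libraries, or in any fit that left out 1 library. The other 5 genes of this role (POLG2, MGME1, TOP1MT, TOP3A and EXOG) were not called in either comparison, with changes of −0.27 to 0.18 after Pt-ttpy and −0.36 to 0.32 after cisplatin.

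Of the 4 genes for transcription proper, 0 passed after either drug (edgeR, with 0 at an unadjusted p under 0.05). The median change was −0.18 with Pt-ttpy and −0.19 with cisplatin. POLRMT (chr19:617224-633604, minus strand), the mitochondrial RNA polymerase, had 109, 93.7 and 108 CPM after Pt-ttpy and 102, 114 and 102 CPM after cisplatin, against 111, 159 and 111 CPM in DMSO. DMSO 2 stood far above the other DMSO libraries, which lay only slightly above those with Pt-ttpy. The change was −0.29 ± 0.14 (adjusted p = 0.192) with Pt-ttpy and −0.25 ± 0.14 (adjusted p = 0.225) with cisplatin. In the 7 libraries it was −0.09 (adjusted p = 0.281) with Pt-ttpy and −0.11 (adjusted p = 0.249) with cisplatin. With the GC correction it was −0.22 with Pt-ttpy, not called, and −0.33 with cisplatin, called (adjusted p = 0.00785). The other 3, the promoter-melting factor TFB2M, the elongation factor TEFM and MTERF3, had changes of −0.36 to 0.32 after Pt-ttpy and −0.22 to 0.04 after cisplatin.

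Of the 16 genes for RNA processing, stability and decay, 3 (18.8%) fell after Pt-ttpy and 4 (25%) after cisplatin, against 6.45% and 9.78% of all genes. The medians were −0.19 for Pt-ttpy and −0.27 for cisplatin. ELAC2 (chr17:12992391-13018187, minus strand), the nuclease that removes the trailers of transfer RNAs, had 98.8, 97.8 and 109.5 CPM after Pt-ttpy and 113, 118 and 112 CPM after cisplatin, against 139.6, 179 and 133 CPM in DMSO. Both drug groups lay wholly below DMSO, the Pt-ttpy group lowest. The change was −0.56 ± 0.12 (adjusted p = 0.0161) with Pt-ttpy and −0.40 ± 0.12 (adjusted p = 0.0345) with cisplatin. Fitted on the 7 libraries, the changes were −0.42 with Pt-ttpy and −0.28 with cisplatin, both called. The difference between the drugs was not called (−0.16, 95% interval −0.42 to 0.10, adjusted p = 0.786).

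SUPV3L1 (chr10:69180232-69209099, plus strand), the helicase that works with the nuclease PNPT1 in RNA decay, had 52.3, 51.5 and 54.6 CPM after Pt-ttpy and 54.4, 52.6 and 56.4 CPM after cisplatin, against 67.0, 67.4 and 64.9 CPM in DMSO. Spread within each group was small and the drug groups did not reach DMSO. The change was −0.33 ± 0.09 (adjusted p = 0.0400) with Pt-ttpy and −0.29 ± 0.09 (adjusted p = 0.0488) with cisplatin, and in the 7 libraries −0.32 with Pt-ttpy and −0.25 with cisplatin, both called. TBRG4 (chr7:45100100-45112047, minus strand), a FASTK-family protein that stabilises certain mitochondrial messengers, had 121, 124 and 134 CPM after Pt-ttpy and 129, 117 and 133 CPM after cisplatin, against 158, 206 and 148 CPM in DMSO. DMSO 2 was the highest library and the drug groups again lay below all of DMSO. The change was −0.43 ± 0.13 with either drug (adjusted p = 0.0442 for Pt-ttpy and 0.0313 for cisplatin). Without DMSO 2 it was −0.27 with either drug (adjusted p = 0.0738 for Pt-ttpy and 0.0483 for cisplatin). In the 7 libraries it was −0.27 with Pt-ttpy and −0.22 with cisplatin, both called.

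FASTKD5, a family member needed for cutting precursors at sites without a transfer RNA, had 37.2, 37.3 and 41.7 CPM after Pt-ttpy and 44.2, 25.2 and 42.1 CPM after cisplatin, against 51.4, 57.6 and 54.0 CPM in DMSO. All drug libraries lay below DMSO, cisplatin 2 far below the rest. The change passed with cisplatin (−0.55 ± 0.18, adjusted p = 0.0478) and not with Pt-ttpy (−0.49 ± 0.18, adjusted p = 0.091). Without cisplatin 2 the cisplatin change was −0.33 and no longer called (adjusted p = 0.0685), while the Pt-ttpy change was called (adjusted p = 0.00798). Both passed in the 7 libraries, at −0.28 with cisplatin and −0.44 with Pt-ttpy.

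LRPPRC had its higher values in the drug groups, with 693, 721 and 735 CPM after Pt-ttpy and 746, 579 and 774 CPM after cisplatin, against 689, 435 and 599 CPM in DMSO. Every Pt-ttpy library lay above every DMSO library, by a narrow margin over DMSO 1, and the cisplatin group overlapped DMSO. Neither change was called in the full fit (0.32 ± 0.16, adjusted p = 0.195 with Pt-ttpy, and 0.28 ± 0.16, adjusted p = 0.215 with cisplatin). Its binding partner SLIRP had changes of −0.34 after Pt-ttpy and −0.41 after cisplatin, also not called. The RNase P subunits TRMT10C and HSD17B10 had −0.05 and −0.31 after Pt-ttpy and −0.17 and −0.34 after cisplatin. None of these was called in the full fit. The remaining 8 genes (FASTK, FASTKD1, FASTKD2, FASTKD3, PNPT1, MTPAP, REXO2 and GRSF1) were also not called in the full fit. Their changes were −0.26 to −0.06 after Pt-ttpy and −0.30 to 0.05 after cisplatin.

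Of the 5 genes for ribosome assembly and rRNA methylation, 0 fell after Pt-ttpy in edgeR (2 at an unadjusted p under 0.05) and 1 (20%) after cisplatin. Over all genes 6.45% and 9.78% were called lower. The medians were −0.27 for Pt-ttpy and −0.14 for cisplatin. DHX30, a helicase of mitochondrial RNA granules, had 239, 229 and 243 CPM after Pt-ttpy and 245, 219 and 245 CPM after cisplatin, against 272, 391 and 276 CPM in DMSO. All drug libraries lay below DMSO, and DMSO 2 stood far above the other DMSO libraries. Its change was −0.40 ± 0.13 with either drug, on different sides of the threshold (adjusted p = 0.068 for Pt-ttpy and 0.0497 for cisplatin). Without DMSO 2 it was −0.20 with Pt-ttpy (adjusted p = 0.119) and −0.21 with cisplatin (adjusted p = 0.078). In the 7 libraries it was −0.20 with Pt-ttpy and −0.15 with cisplatin, both called. TFB1M, MTERF4, NSUN4 and DDX28 had changes of −0.36 to 0.18 after Pt-ttpy and −0.32 to 0.01 after cisplatin. Exons of MTERF4 overlap those of SNED1 over 51.0% of their length, and those of DDX28 overlap DUS2 over 22.5%, so values of both are uncertain.

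Of the 9 translation factors, 3 (33.3%) fell after each drug, against 6.45% of all genes for Pt-ttpy and 9.78% for cisplatin. The medians were −0.41 for Pt-ttpy and −0.40 for cisplatin. TUFM (chr16:28842411-28846408, minus strand) had 368, 360.0 and 388 CPM after Pt-ttpy and 382, 403 and 375 CPM after cisplatin, against 447, 653 and 482 CPM in DMSO. The drug groups were narrow and lay below DMSO, where DMSO 2 was highest. The change was −0.50 ± 0.13 (adjusted p = 0.0277) with Pt-ttpy and −0.45 ± 0.13 (adjusted p = 0.0294) with cisplatin. Without DMSO 2 it was −0.32 with Pt-ttpy and −0.26 with cisplatin, and in the 7 libraries −0.32 with Pt-ttpy and −0.29 with cisplatin, all called. TUFM has 1 annotated pseudogene (TUFMP1), which may take or add reads.

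TSFM (chr12:57782589-57808071, plus strand), which recharges TUFM with GTP, had 44.3, 43.4 and 45.0 CPM after Pt-ttpy and 45.2, 42.8 and 48.2 CPM after cisplatin, against 57.9, 66.2 and 55.8 CPM in DMSO. No drug library reached DMSO. The change was −0.44 ± 0.11 (adjusted p = 0.0239) with Pt-ttpy and −0.40 ± 0.11 (adjusted p = 0.0224) with cisplatin, and in the 7 libraries −0.36 with Pt-ttpy and −0.28 with cisplatin, both called. Exons of TSFM overlap another protein-coding gene on the same strand over 18.7% of their length and AVIL on the opposite strand over 9.8%.

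TACO1 (chr17:63600872-63608365, plus strand), an activator of the translation of a cytochrome oxidase subunit, had 39.9, 43.6 and 44.8 CPM after Pt-ttpy and 48.3, 42.7 and 47.8 CPM after cisplatin, against 57.3, 77.2 and 59.6 CPM in DMSO. The groups did not overlap, and DMSO 2 was again the highest. The change was −0.60 ± 0.13 (adjusted p = 0.0172) with Pt-ttpy and −0.48 ± 0.13 (adjusted p = 0.0231) with cisplatin, and in the 7 libraries −0.45 with Pt-ttpy and −0.28 with cisplatin, both called. Of the 6 uncalled genes, the elongation factor GFM1, the initiation factors MTIF2 and MTIF3 and the release factors MTRF1 and MTRF1L had changes of −0.52 to −0.08 after Pt-ttpy and −0.44 to 0.00 after cisplatin. GFM2, which recycles ribosomes, had 0.15 after Pt-ttpy and 0.21 after cisplatin.

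**Figure D3:**
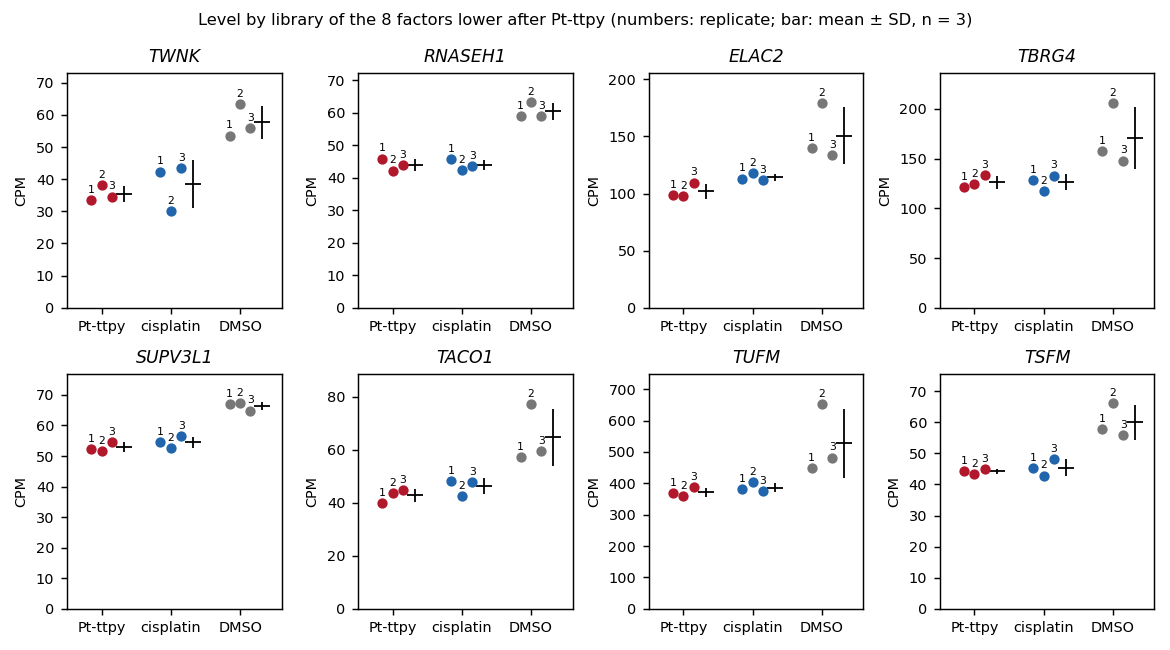
CPM of the 8 factors that fell after Pt-ttpy in each library, with the group mean and SD (n = 3), for Pt-ttpy, cisplatin and DMSO. In all 8 panels every Pt-ttpy and cisplatin point lies below every DMSO point. Of all genes, 20.6% did so with Pt-ttpy and 19.4% with cisplatin. The 8 were picked by their call against these same DMSO libraries, so their separation is not a further result.

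The nuclear regulators NRF1 and GABPA are transcription factors that act on many nuclear genes for mitochondria. NRF1 had 28.5, 27.5 and 28.6 CPM after Pt-ttpy and 24.3, 22.9 and 27.4 CPM after cisplatin, against 29.8, 34.8 and 32.5 CPM in DMSO. Each drug group lay below DMSO, and cisplatin lowest. The change passed with cisplatin (−0.38 ± 0.12, adjusted p = 0.0408) and not with Pt-ttpy (−0.20 ± 0.12, adjusted p = 0.281), and the difference between the drugs was not called (0.18, 95% interval −0.08 to 0.44, adjusted p = 0.759). NRF1 was not called with either drug in the 7 libraries (−0.14 with Pt-ttpy and −0.26 with cisplatin). GABPA had changes of 0.03 with Pt-ttpy and −0.13 with cisplatin, not called, and its values of 29.6 CPM in cisplatin 2 and 26.6 CPM in DMSO 2 were far below the 45.6 to 56.8 CPM of the other 7 libraries. In those 7, GABPA was called lower with Pt-ttpy (−0.25, adjusted p = 0.0114) and not with cisplatin (−0.19, adjusted p = 0.0712). With the GC correction of all 9 libraries GABPA was not called with either drug.

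Set directly against cisplatin, Pt-ttpy changed 0 of the 46 factors (edgeR, adjusted p under 0.05), against 0.0578% of all genes called higher and 0.456% called lower. At an unadjusted p under 0.05 there was 1 (REXO2), against 8.06% of all genes, and DESeq2 and limma-voom also called 0 members. Over all genes edgeR called 80 and DESeq2 called 253. The doses differ and each was set by its own IC80. The median difference was 0.02, against 0.00 over all genes, and 18 of 46 were below 0, against 49.2%. In 3 members every Pt-ttpy library lay below every cisplatin library (10.1% of all genes), and in 2 every one lay above (10.5%). REXO2, an exonuclease that clears short RNA fragments, had 23.9, 23.7 and 21.6 CPM after Pt-ttpy, against 28.9, 26.3 and 28.2 CPM after cisplatin. The groups did not overlap, and the difference was −0.27 ± 0.11 (adjusted p = 0.563). For 34 of 46 members the 95% interval of the difference lay within ±0.5 on the log2 scale, and for all 46 within ±1. An uncalled difference does not show that the drugs act alike.

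In the DMSO group the place of replicate 2 among the libraries changed with the GC content of the gene. The 46 transcripts spanned 36.5% to 65.1% GC, with a median of 44.9%. The log2 level in replicate 2 minus the mean of replicates 1 and 3 correlated with GC across the 46 genes with Spearman rho 0.91 in DMSO, 0.69 in cisplatin and −0.15 in Pt-ttpy (a description over genes of the same libraries). DMSO 2 was the highest DMSO library in 20 of the 23 members at or above the median GC and the lowest in 20 of the 23 below it. Every member called lower after Pt-ttpy in the full fit lay above that median, from 45.2% (SUPV3L1) to 58.7% GC (TUFM). So did those called lower after cisplatin, except SSBP1 (41.9%). The part of GC content in these calls was not tested. Cisplatin 2 was the lowest of its group in 19 of the 23 members below the median and in 15 of the 23 at or above it, where it was the highest in 7. GABPA, the member with the lowest GC, had a difference of −1.08 in DMSO 2 on this log2 scale, and POLRMT, the member with the highest, had 0.52.

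**Figure D4:**
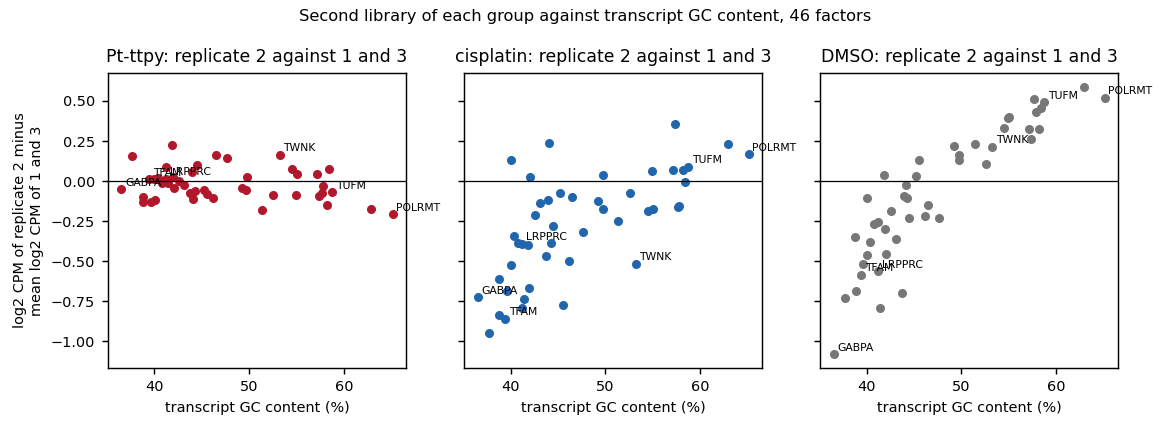
Log2 CPM in replicate 2 minus the mean of replicates 1 and 3 against transcript GC (percent) for the 46 factors, in panels for Pt-ttpy, cisplatin and DMSO. The DMSO points rise with GC (rho 0.91) and so do the cisplatin points (0.69), while the Pt-ttpy points do not (−0.15).

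In a fit of 7 libraries, without DMSO 2 and cisplatin 2, 25 of 46 factors fell and 1 rose after Pt-ttpy, with all 8 calls of the full fit among them. Over all genes 17.4% were then called lower and 15.8% higher, so the background rose as well. The median change of the members hardly moved (−0.24). TFB2M (−0.45), MTRF1L (−0.59), GFM1 (−0.43), MTIF2 (−0.38), SSBP1 (−0.34) and GABPA (−0.25) joined TFAM among those that fell. So did HSD17B10, SLIRP, TRMT10C, GRSF1, PNPT1, FASTKD1, FASTKD2, FASTKD5, REXO2 and DHX30. LRPPRC rose by 0.16 (adjusted p = 0.0336). Cisplatin gave 18 lower and 2 higher, MGME1 (0.34), an exonuclease that trims mtDNA ends, and LRPPRC (0.24), against 16.4% and 13.9% of all genes. NRF1 was no longer called with cisplatin. In the direct comparison 3 factors fell with Pt-ttpy relative to cisplatin and 0 rose, against 2.83% and 2.37% of all genes: TFAM (−0.22, adjusted p = 0.0283), TFB2M (−0.34, adjusted p = 0.0200) and TWNK (−0.28, adjusted p = 0.0423). This fit leaves 2 libraries in each of the DMSO and cisplatin groups. A correction for GC content in all 9 libraries gave 16 lower and 1 higher (LRPPRC) after Pt-ttpy, against 11.7% and 12.2% of all genes, 21 lower and 3 higher after cisplatin, against 16.3% and 17.3%. Between the drugs it called 0 members, against 1.14% lower and 0.341% higher over all genes, with 2 at an unadjusted p under 0.05.

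A further 89 genes of mitochondrial gene expression, listed by function, gave a like picture. After Pt-ttpy 16 fell and 0 rose (18.0% lower, against 6.45% of all genes; median −0.18). After cisplatin 21 fell and 1 rose (23.6% lower, against 9.78%; median −0.14), and between the drugs 0 were called (edgeR, with 3 at an unadjusted p under 0.05). By function, 7 of 25 tRNA and rRNA modification genes fell after Pt-ttpy (28%) and 4 after cisplatin (16%). Of 9 ribosome assembly genes, 3 fell after each drug (33.3%). Of 22 mitochondrial tRNA synthetases, 2 fell after Pt-ttpy (9.09%) and 6 after cisplatin (27.3%). Of 16 genes for nucleotide supply and replication, 2 fell after Pt-ttpy (12.5%) and 4 after cisplatin (25%). Among genes with a mean of at least 5 CPM, 8.83% were called lower after Pt-ttpy and 13.3% after cisplatin, so some of these shares lay near that background. The transfer RNA thiolase TRMU had a change of −0.90 with either drug (adjusted p = 0.0132 for Pt-ttpy and 0.00663 for cisplatin). ATAD3B, an inner membrane protein tied to mtDNA nucleoids, had −0.86 with Pt-ttpy (adjusted p = 0.0148) and −0.92 with cisplatin (adjusted p = 0.00594). The tyrosyl-tRNA synthetase YARS2 had −0.56 with Pt-ttpy (adjusted p = 0.0123) and −0.58 with cisplatin (adjusted p = 0.00513). The rRNA methyltransferase MRM2 fell with Pt-ttpy (−0.50, adjusted p = 0.0154), and the glycyl-tRNA synthetase GARS1, which also serves the cytosol, fell with cisplatin (−0.60, adjusted p = 0.00424). MRM2 averaged 41.9 CPM after Pt-ttpy and 48.5 CPM after cisplatin, against 59.4 CPM in DMSO. GARS1 averaged 126 CPM after Pt-ttpy and 105 CPM after cisplatin, against 158 CPM in DMSO. Both thus had lower means after either drug, and neither was called between the drugs. RRM2B, a ribonucleotide reductase subunit induced by p53, was the 1 gene that rose with cisplatin and is named after its value was seen. RRM2B had 65.7, 74.5 and 67.2 CPM after Pt-ttpy and 129, 93.7 and 115 CPM after cisplatin, against 67.4, 30.6 and 58.9 CPM in DMSO. Its change with cisplatin was 1.10 (adjusted p = 0.00918). The Pt-ttpy libraries overlapped DMSO, with DMSO 2 far below the rest, and the Pt-ttpy change was not called. Without Pt-ttpy 1, 2 or 3 the 16 calls for Pt-ttpy came to 0, 0 and 1, and without cisplatin 2 they came to 26.

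The 13 protein-coding transcripts of mtDNA itself, which these factors make and process, had 0 calls in any of the 3 comparisons of all 9 libraries in edgeR, DESeq2 or limma-voom, and 0 at an unadjusted p under 0.05. With the 6 Pt-ttpy and DMSO libraries alone, 4 had an unadjusted p under 0.05, as did 2 between the drugs without cisplatin 1, and 0 were called. Their median change was 0.53 with Pt-ttpy and 0.39 with cisplatin, both above 0. Their share of all counts was 1.95% to 4.18% after Pt-ttpy and 0.756% to 4.21% after cisplatin, against 1.75% to 1.89% in DMSO. In each drug group 1 library stood far above the others.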

How the data were processed

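The authors deposited 1 table of raw counts per gene for 9 libraries of total RNA from A2780 cells, made with an mRNA library kit per the labels' protocols, with each column tied to its sample by its label. Per the submitters' processing notes, the reference was GRCh38. The aligner, counter and strandedness were not given in the sources used here. The table has 24542 rows, of which 4568 are newGene loci without an Ensembl identifier. Counts were fitted with edgeR 4.0.16 in R 4.3.3 (filterByExpr, minimum count 10; TMM factors; robust quasi-likelihood, 1 mean per group), leaving 15558 genes, with Benjamini-Hochberg adjustment over all of them. CPM uses TMM library sizes. Depth was 31.3 to 40.8 M counts. Intervals are 95%. Exon lengths, positions and GC come from GENCODE 29, and promoters from RefSeq. Settings were also varied with DESeq2 1.42.0 and limma 3.58.1 (voom), other factors and filters, fits without each library, without newGene loci, with a GC correction (lowess span 0.3) and for 7 libraries. The fit was tested on simulated data. The members and lists were chosen with earlier results of these data known. Full values are given for members called in any comparison and for TFAM, POLRMT, TWNK, POLG, SSBP1, LRPPRC, TUFM and PPARGC1A, and up to 4 other pathway genes per comparison are named by adjusted p.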

Additional observations from a re-analysis of the deposited data

How the results depend on the processing

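For Pt-ttpy against DMSO, the 8 lower members became 5 with upper-quartile factors, 25 in the 7 libraries, 16 with the GC correction and 17 with the replicate block and GC correction, and 1 was higher in each of the last 3. The median of −0.23 became −0.17 with upper-quartile factors and with library totals, where the median of all genes was 0.10. TWNK, RNASEH1, ELAC2, TSFM and TACO1 were called in all 14 settings other than those that leave out 1 library. Over all genes, 1874 calls became 2853 with DESeq2, 5189 in the 7 libraries, 3720 with the GC correction and 3811 with block and GC correction. The 89 other genes gave 1 higher with upper-quartile factors, totals and DESeq2, 5 in the 7 libraries, 2 with the replicate block and 3 with the GC correction, with or without block, and 34 lower in the 7 libraries.

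For cisplatin against DMSO, the 12 lower members became 4 with upper-quartile factors or totals, 0 with the 6 libraries alone, 7 without newGene loci, 21 with the GC correction and 20 with block and GC correction. Members higher were 1 with upper-quartile factors, totals and DESeq2 (MGME1), 2 in the 7 libraries, 3 with the GC correction and 2 with block and GC correction. Over all genes, 3190 became 1313 with the 6 libraries alone, 5222 with the GC correction and 5292 with block and GC correction. The 89 other genes gave 3 higher with upper-quartile factors, totals and DESeq2, 2 in the 7 libraries and with the block, 5 with the GC correction and 7 with both, and 5 lower with the 6 libraries alone.

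Between the drugs, 80 calls became 253 with DESeq2, 813 in the 7 libraries, 140 with the block, 230 with the GC correction and 252 with both. The 7 libraries gave 3 lower members, with TFAM at −0.22 against 0.02 in the full fit, and 3 higher and 5 lower among the 89. The GC correction, with or without block, gave 1 higher and 1 lower among the 89. The cause of these moves was not tested.

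Leaving out 1 library in turn, calls over all genes ranged from 185 to 3004 for Pt-ttpy, 2012 to 3100 for cisplatin and 18 to 155 between the drugs. Lower members ranged from 0 to 14 and from 3 to 9, higher ones from 0 to 0 and from 0 to 1, and member medians from −0.27 to −0.22, from −0.32 to −0.23 and from −0.05 to 0.05. Of the 89, 0 to 26 and 14 to 19 were lower and 0 to 1 and 1 to 2 higher, with 0 to 1 lower between the drugs.

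Deviations of same-numbered libraries correlated above 0.1 in 1 of 9 pairs (correlations −0.039 to 0.221). Between DMSO and cisplatin they had 0.10, 0.22 and 0.08 for replicates 1, 2 and 3. Differently numbered DMSO and cisplatin libraries had −0.145 to 0.065. Whether the numbers pair the samples is not decided by these values, and the labels do not say what a number shares. With the replicate block, 9 members were lower after Pt-ttpy and 14 after cisplatin, and 2539 and 3712 genes were called. Counts of 0 and small changes in low genes are limited by depth.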
